A study of Mus musculus with 10 samples.

Results

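The genes described here encode 10 mitochondrial proteins of branched-chain amino acid breakdown: *Bcat2*, *Bckdha*, *Bckdhb*, *Bckdk*, *Ivd*, *Mccc1*, *Hibadh*, *Aldh6a1*, *Pcca* and *Pccb*. They were chosen by name, and all probes with these gene symbols were taken. This gave 12 of the 55681 probes on the array, or 10 of its 34797 symbols. *Mccc1* and *Aldh6a1* had 2 probes each and the other 8 genes had 1. RNA of epididymal white adipose tissue (eWAT), the fat pad along the epididymis, was measured in 10 male mice of 1 group. These adult wild-type mice carried no transgene, and the strain is given as C57BL/6JOlaHsd in the protocol and as C57BL/6J among the characteristics. They were 9 weeks old at the start, received a purified low fat diet for 3 weeks and a high fat diet (HFD) for 12 weeks at 29°C, and were then injected daily for 5 days with desferrioxamine (DFO), an iron chelator, at 100 mg/kg. On day 6 they were killed after 2 h without food. Each mouse had its own array, so the mice were not pooled in Cy5, and uninjected control mice were not analysed here. The Cy5 dye marked the RNA of the mouse and Cy3 a pool of RNA from all mice of the wider study, so that a log2 ratio gives the level in a mouse relative to 1 common reference. The dyes were not swapped. A ratio can therefore hold a bias of the probe for 1 dye, and no mean ratio was tested against 0.

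Leucine, isoleucine and valine are broken down by a shared route that then branches. An aminotransferase first removes the amino group, and the branched-chain ketoacid dehydrogenase complex then commits the carbon skeleton to oxidation. A kinase switches this complex off by phosphorylation. Separate enzymes of the mitochondrial matrix take the products to acetyl-CoA, acetoacetate and propionyl-CoA. Adipocytes are known as a site of this breakdown, and their branched-chain amino acid enzymes are well known to be low in obesity.

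The *Pcca* probe is shown because it is the member probe that crosses an intron: its 60 bases lie within chr14:123212448-123276023 of mm9 on the plus strand, a span of 63576 bases. It therefore reads spliced RNA.
Pcca: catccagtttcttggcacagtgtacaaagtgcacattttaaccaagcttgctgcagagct

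All 10 genes were found among the RefSeq promoters of GRCm38.p6, with 14 windows, since 4 of them have 2 start sites listed. The 250 bases before each start were searched on both strands for the CCAAT box (CCAAT or ATTGG), and 9 of the 14 windows, of 7 genes, held it. It stood in 33.8% of all 32851 windows. The 7 genes were *Bckdhb*, *Bckdk*, *Mccc1*, *Pcca*, *Hibadh*, *Ivd* and *Aldh6a1*. The 2 windows of *Aldh6a1* held 4 and 1 copies, those of *Bckdhb* 2 and 0 and those of *Pcca* 1 each. *Ivd* had 4 copies, *Mccc1* 3, *Hibadh* and *Bckdk* 1, and *Bcat2*, *Bckdha* and *Pccb* 0. The window with more copies of *Aldh6a1*, the member with the widest spread between mice, that of *Bckdhb*, an E1 subunit, and the window of *Bckdk*, the member with the narrowest spread, are shown with CCAAT or ATTGG in capitals, at chr12:84451025-84451274 (minus strand), chr9:83924887-83925136 (plus strand) and chr7:127903823-127904072 (plus strand).
Aldh6a1: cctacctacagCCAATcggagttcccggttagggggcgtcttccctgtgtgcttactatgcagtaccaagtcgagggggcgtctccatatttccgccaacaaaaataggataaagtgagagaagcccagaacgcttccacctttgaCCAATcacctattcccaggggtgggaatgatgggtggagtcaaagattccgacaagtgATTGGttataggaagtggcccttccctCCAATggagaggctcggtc
Bckdhb: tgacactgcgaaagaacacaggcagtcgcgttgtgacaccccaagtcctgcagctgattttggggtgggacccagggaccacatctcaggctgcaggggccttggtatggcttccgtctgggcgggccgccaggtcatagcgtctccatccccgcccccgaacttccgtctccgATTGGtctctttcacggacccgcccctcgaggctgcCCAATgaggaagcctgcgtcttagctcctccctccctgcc
Bckdk: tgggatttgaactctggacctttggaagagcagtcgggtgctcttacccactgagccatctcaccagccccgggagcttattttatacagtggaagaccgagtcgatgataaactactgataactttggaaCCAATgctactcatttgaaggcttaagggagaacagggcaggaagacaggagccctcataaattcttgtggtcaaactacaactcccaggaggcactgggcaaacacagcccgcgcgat

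The GC box (GGGCGG or CCGCCC) stood in 4 of the 14 member windows and in 32.7% of all windows. The core of hypoxia response elements (ACGTG or CACGT) stood in the 2 windows of *Bcat2* alone, against 16.6% of all windows. The NRF1 site (GCGCA, any base, then GCGC, or the reverse complement) stood in the windows of *Pccb* and *Hibadh* and in 3.74% of all windows. The E-box CACGTG, which contains the hypoxia core, and the estrogen-related receptor site (AAGGTCA or TGACCTT) were in 0 member windows, against 6.02% and 4.08% of all windows. These counts describe letters only.

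All 12 member probes were well above background in both dyes on all 10 arrays, and no spot was saturated. The median Cy5 signal of an array lay between 53 and 79, against a local background of 32 to 37. In the probe with the lowest signals, the second of *Aldh6a1*, the uncorrected Cy5 brightness went from 170 to 1061. The 10 adipocyte markers were expressed. Of the epididymis and sperm markers *Crisp1*, *Defb2* and *Lcn5* were not expressed in Cy5, though *Crisp1* was well above background in the pool on all 10 arrays. *Prm1* and *Prm2* were expressed and were highest in mouse 2, at log2 ratios of -1.37 and -0.79. The 10 arrays lay on 5 slides, 2 to a slide. On the first component of all 27718 expressed probes, which held 75.1% of the variance between mice, mice 4, 5, 6 and 7 stood on 1 side and the other 6 on the other.

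The members moved by unlike amounts, but 9 of the 10 genes, all but *Bckdk*, shared their low mice. Mice 4, 5, 6 and 7 were the 4 lowest of the 10 for these 9, a pattern that 21.3% of all expressed probes had. With median centring of each array in place of loess it held for 1 gene, *Ivd*, and mouse 3 took the place of mouse 6 in 8 others. With mouse 3 left out it held for the same 9 under median centring too. Median centring moved the median ratio of all expressed probes to 0.32 on the log2 scale and that of mouse 3 to -0.11, against a highest of 0.47 in mouse 7. The mean over the 10 members was lowest in mouse 7, at -1.01, and highest in mouse 9, at 0.48.

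**Figure D1:**
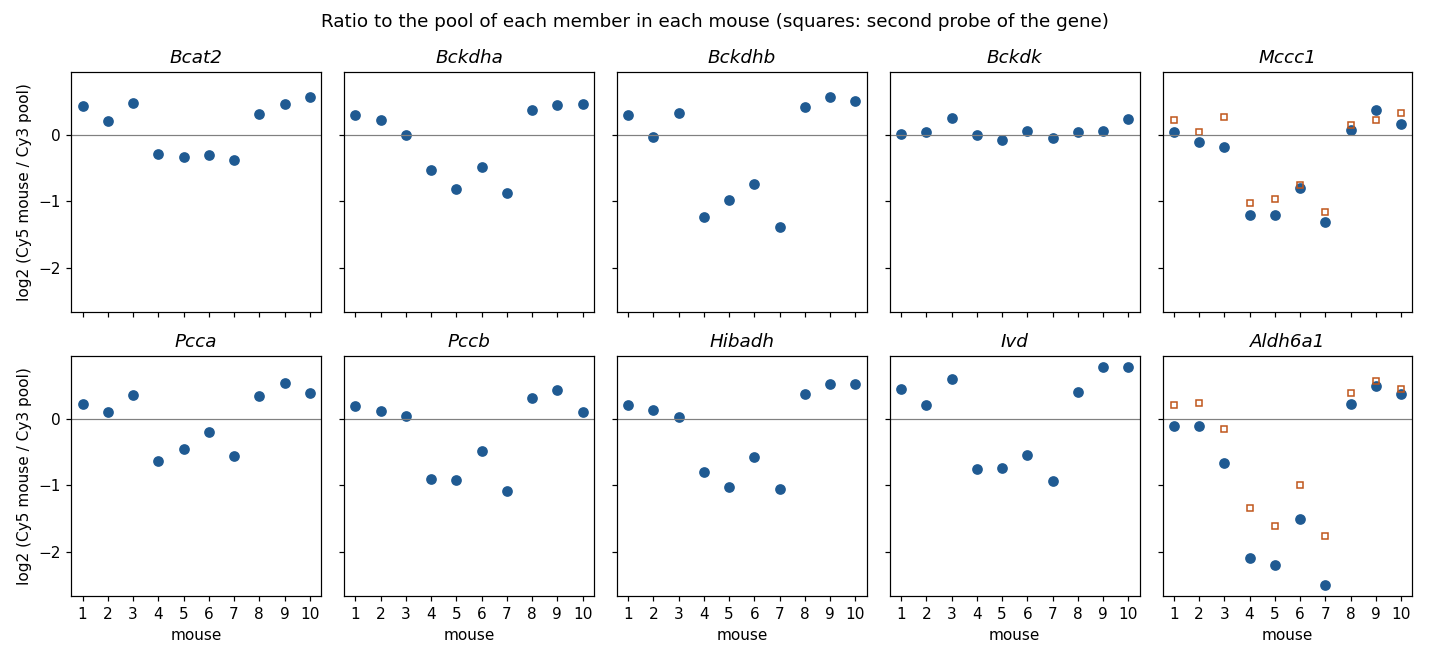
Log2 ratio of Cy5 (mouse) over Cy3 (pool) on the vertical axis for mice 1 to 10 on the horizontal axis, 1 panel per gene. Circles are the brightest probe and open squares the second probe of *Mccc1* and *Aldh6a1*. Mice 4 to 7 lie below the other 6 in every panel but that of *Bckdk*, whose values stay between -0.07 and 0.25. With median centring in place of loess this order held for *Ivd* alone.

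*Bcat2* encodes the mitochondrial aminotransferase of the first step. Its log2 ratio was 0.44, 0.22, 0.48, -0.29, -0.33, -0.30, -0.38, 0.32, 0.47 and 0.57 in mice 1 to 10. The 4 values below 0 were close together, between -0.38 and -0.29, and the other 6 were between 0.22 and 0.57. The mean was 0.12 ± 0.39 (SD, n = 10), the second narrowest spread of the 10 members.

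*Bckdha* and *Bckdhb* encode the alpha and beta subunits of E1, the decarboxylase of the ketoacid dehydrogenase complex. *Bckdha* measured 0.31, 0.22, 0.00, -0.53, -0.81, -0.49, -0.87, 0.38, 0.45 and 0.47 in mice 1 to 10, with a mean of -0.09 ± 0.53 (SD, n = 10). *Bckdhb* measured 0.30, -0.03, 0.33, -1.23, -0.97, -0.74, -1.38, 0.42, 0.57 and 0.52, with a mean of -0.22 ± 0.78 (SD, n = 10). Both subunits were lowest in mouse 7, but mouse 5 came second for *Bckdha* and mouse 4 for *Bckdhb*. The difference of *Bckdhb* minus *Bckdha* within a mouse went from -0.70 in mouse 4 to 0.33 in mouse 3, with a median of -0.08.

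*Bckdk* encodes the kinase that inactivates E1. Its ratio was 0.02, 0.05, 0.25, 0.01, -0.07, 0.07, -0.04, 0.05, 0.07 and 0.24 in mice 1 to 10. Mouse 6 lay above mice 1, 2 and 8, so the mice that were low for the other 9 members overlapped with the rest here. The mean was 0.06 ± 0.11 (SD, n = 10). The largest and the smallest value differed 1.25-fold, against 1.93-fold for *Bcat2* and 8.05-fold for *Aldh6a1*. *Bckdha* minus *Bckdk* within a mouse was 0.28, 0.17, -0.25, -0.54, -0.74, -0.56, -0.83, 0.32, 0.38 and 0.23 in mice 1 to 10. Relative to the pool, *Bckdha* lay below its kinase in mice 3 to 7 and above it in the other 5.

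For leucine, *Ivd* encodes isovaleryl-CoA dehydrogenase and *Mccc1* the biotin-carrying subunit of methylcrotonyl-CoA carboxylase, the step after it. *Ivd* measured 0.46, 0.22, 0.61, -0.75, -0.74, -0.55, -0.93, 0.41, 0.79 and 0.79 in mice 1 to 10, with a mean of 0.03 ± 0.69 (SD, n = 10). The brightest *Mccc1* probe measured 0.04, -0.11, -0.18, -1.20, -1.21, -0.79, -1.31, 0.09, 0.38 and 0.17, with a mean of -0.41 ± 0.65 (SD, n = 10). In both genes the 4 low mice were separated from the other 6, by the step from -0.55 to 0.22 in *Ivd* and from -0.79 to -0.18 in *Mccc1*. The second *Mccc1* probe had the same 4 low mice and a mean of -0.26 ± 0.63 (SD, n = 10). The probes disagreed most in mouse 3, with -0.18 in the first and 0.28 in the second.

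For valine, *Hibadh* encodes 3-hydroxyisobutyrate dehydrogenase and *Aldh6a1* methylmalonate-semialdehyde dehydrogenase, the next enzyme. *Hibadh* measured 0.22, 0.15, 0.04, -0.80, -1.02, -0.57, -1.05, 0.39, 0.54 and 0.53 in mice 1 to 10, with a mean of -0.16 ± 0.64 (SD, n = 10). The brightest *Aldh6a1* probe measured -0.10, -0.10, -0.66, -2.10, -2.20, -1.50, -2.50, 0.22, 0.51 and 0.38, with a mean of -0.81 ± 1.16 (SD, n = 10). Mouse 3 stood between the 4 low mice and the other 5 here. The second probe of *Aldh6a1* kept that order of groups, from -1.77 in mouse 7 to 0.57 in mouse 9, with an SD of 0.93 over the 10 mice. *Aldh6a1* minus *Hibadh* within a mouse went from -1.45 in mouse 7 to -0.03 in mouse 9.

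*Pcca* and *Pccb* encode the subunits of propionyl-CoA carboxylase, which takes the propionyl-CoA of valine and isoleucine onward. *Pcca* measured 0.23, 0.11, 0.36, -0.64, -0.44, -0.19, -0.56, 0.35, 0.55 and 0.40 in mice 1 to 10, with a mean of 0.02 ± 0.44 (SD, n = 10). *Pccb* measured 0.21, 0.12, 0.05, -0.90, -0.92, -0.48, -1.09, 0.32, 0.45 and 0.11, with a mean of -0.21 ± 0.58 (SD, n = 10). *Pcca* was lowest in mouse 4 and *Pccb* in mouse 7. *Pccb* minus *Pcca* was below 0 in all mice but mouse 2, at 0.02, and was lowest in mouse 7, at -0.53.

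The design allows a test of whether a probe varied more between the 10 mice (Cy5) than the 1 pool did between the same 10 arrays (Cy3). Dye and source of the RNA differ together, so the test cannot part the mice from the dye or from the preparation of each sample. All 12 member probes varied more in Cy5 (Pitman-Morgan test for paired variances, two-sided, Benjamini-Hochberg adjusted over 25049 probes, threshold 0.05), but 59.8% of all tested probes did too, and 0.164% varied less. The SD of the log2 signal was 0.10 to 1.17 in Cy5 and 0.04 to 0.09 in Cy3 over the 12 probes. The ratio of the SDs was 18.3 for the brightest *Aldh6a1* probe and 2.37 for *Bckdk*, against a median of 2.48 over all tested probes. The adjusted p was 2.74e-07 for *Aldh6a1*, 6.81e-05 for *Bcat2* and 0.0424 for *Bckdk* (Pitman-Morgan test). The call of *Bckdk* did not hold in most reruns: its adjusted p was 0.241 with the slide as a block and went from 0.0154 to 0.256 on leaving out 1 mouse, with no call without any 1 of the 8 mice 2, 3, 4, 6, 7, 8, 9 and 10. Without normalization between arrays 7 of the 12 probes were called, and *Bcat2*, *Bckdha*, *Bckdk*, *Pcca* and *Hibadh* were not.

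**Figure D2:**
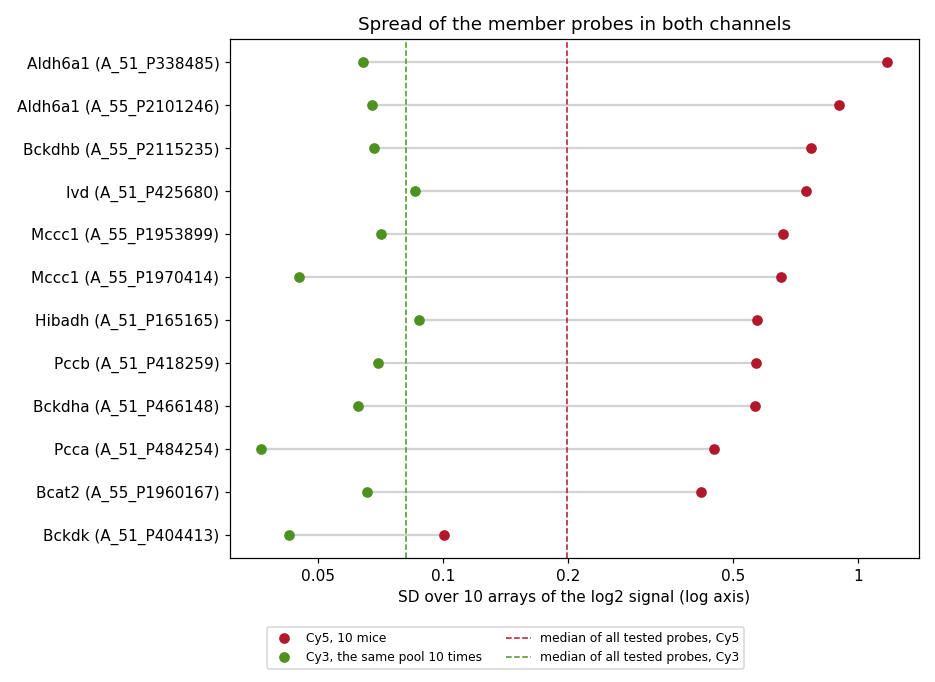
SD over 10 arrays of the log2 signal on a log axis for each member probe, in Cy5 (red, 10 mice) and in Cy3 (green, 1 pool measured 10 times). Dashed lines are the medians of all tested probes, 0.20 in Cy5 and 0.08 in Cy3. All members but *Bckdk* lie right of the red line, and *Bckdk* lies left of it at 0.10.

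Ranked among all expressed probes by the SD of the log2 ratio, *Aldh6a1* stood at percentile 99.4, *Bckdhb* at 96.9, *Ivd* at 95.5 and *Bcat2* at 84.6, while *Bckdk* stood at 12.7. The median SD was 0.61 over the 10 members and 0.18 over all expressed probes. No slide effect passed for any probe (limma F test, 0 of 27718 after adjustment, 1136 or 4.1% at an unadjusted p under 0.05), and for the 12 member probes the unadjusted p lay between 0.0984 and 0.665. Low and high mice met on slides 2 and 4 only. Slide 3 held 2 low mice, 5 and 6, and slides 1 and 5 held high mice alone, so slide and this split overlap in part. Whether the split follows the order of the arrays was not tested. On slide 2 *Aldh6a1* was -0.66 in mouse 3 and -2.10 in mouse 4, and on slide 4 it was -2.50 in mouse 7 and 0.22 in mouse 8.

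A list of 23 other genes of branched-chain amino acid use was read in the same way. Of these, 20 varied more in Cy5 than in Cy3 and 0 less, against 59.8% and 0.164% of all tested probes. The brightest probes of *Ppm1k*, *Slc25a44* and *Slc7a5* did not pass. A second probe did pass for *Slc25a44* (Pitman-Morgan adjusted p = 0.0281) and for *Slc7a5* (0.0198). The median SD of the ratio was 0.46 over the list. By the brightest probe, mice 4 to 7 were the 4 lowest for 15 of the 23, against 21.3% of all expressed probes. They were the 4 highest for 0 of the 10 members, against 17.9% of all expressed probes. *Dbt* and *Dld* complete the ketoacid dehydrogenase complex as its E2 and E3. *Dbt* went from -0.98 in mouse 7 to 0.33 in mouse 9, with a median of -0.20, and *Dld*, an E3 shared with other dehydrogenases, from -0.54 in mouse 5 to 0.16 in mouse 9, with a median of -0.12. A second *Dld* probe was low in mice 3, 5 and 7, from -0.55 to -0.45, with mice 4 and 6 at -0.04 and -0.05.

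*Ppm1k*, the phosphatase that reactivates the complex, went from -0.42 to 0.27 with a median of -0.19, and its adjusted p in the Pitman-Morgan test was 0.122. *Mccc2*, the partner subunit of *Mccc1*, went from -1.66 in mouse 7 to 0.45 in mouse 8 with a median of -0.12. *Hibch*, the hydrolase before *Hibadh*, went from -1.83 to 0.47 with a median of -0.23. *Mut*, the mutase that ends the propionyl-CoA route, went from -1.31 to 0.35 with a median of -0.15.

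*Bcat1*, the cytosolic aminotransferase, went from -0.46 in mouse 9 to 0.36 in mouse 2 in its brightest probe, with a median of -0.05. It did not separate the mice as *Bcat2* did. Another *Bcat1* probe went from -0.37 in mouse 10 to 0.24 in mouse 5, and a further probe from -0.33 in mouse 10 to 0.24 in mouse 4. Of the transporters, *Slc43a1* had the widest spread, from -0.84 in mouse 7 to 0.72 in mouse 10, with a median of 0.10. *Klf15*, a transcription factor known to act on amino acid breakdown genes, had the second largest SD after *Aldh6a1* among the 33 genes, with -1.55 in mouse 7, 1.04 in mouse 9 and a median of 0.45.

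**Figure D3:**
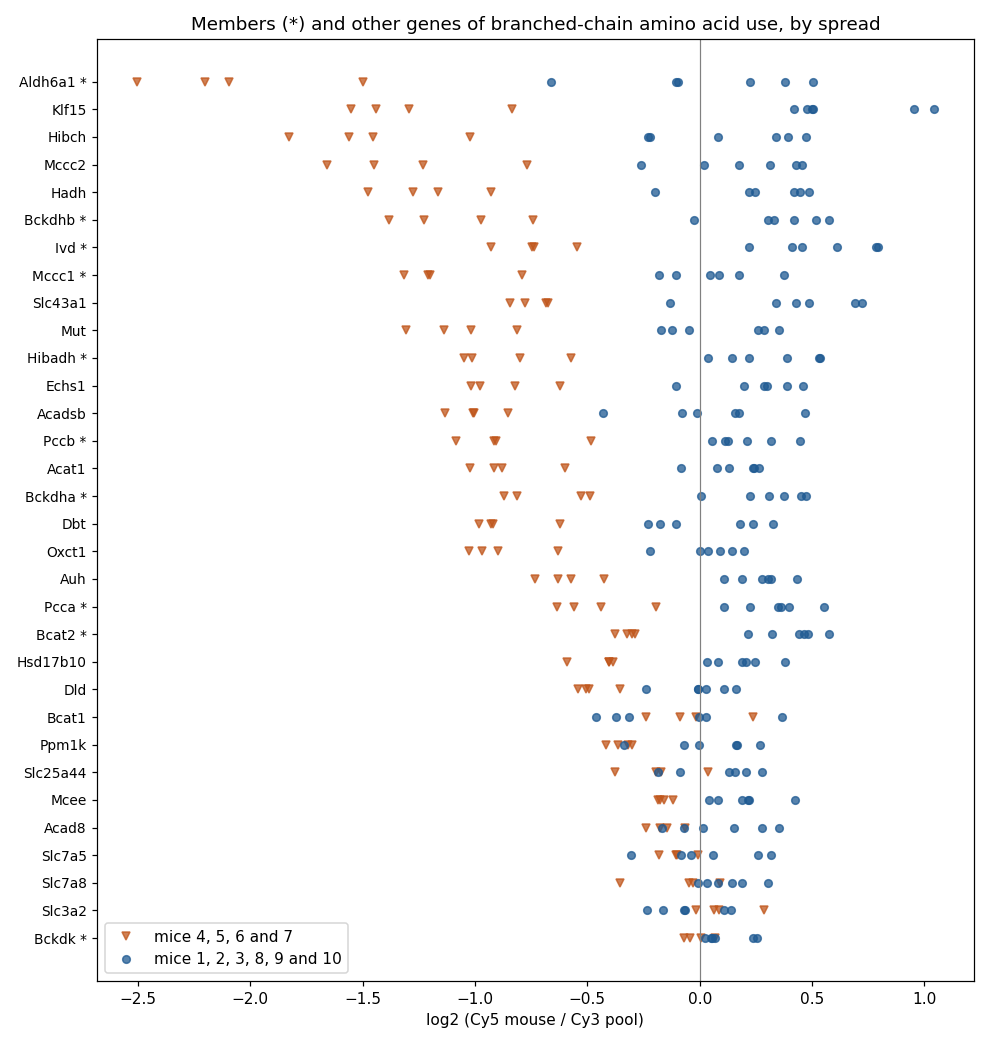
Log2 ratio to the pool on the horizontal axis for the 10 members (marked with a star) and other genes of the list, ordered by SD with the widest at the top. Each symbol is 1 mouse, with triangles for mice 4 to 7 and circles for the other 6. *Aldh6a1* and *Klf15* are at the top and *Bckdk* is at the bottom. Under median centring mouse 3 replaced mouse 6 among the lowest 4 for 8 members.

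In a piece of tissue, fewer adipocytes and less RNA per adipocyte cannot be told apart, so the cell type markers were read beside the members. By the brightest probe, all 10 adipocyte markers had mice 4 to 7 as the 4 lowest, against 21.3% of all expressed probes. Their mean log2 ratio was 0.29, -0.17, 0.16, -2.07, -1.85, -1.32, -2.28, 0.52, 0.61 and 0.55 in mice 1 to 10, where mouse 9 lacks *Retn*. All 10 macrophage markers had the same mice as the 4 highest, against 17.9% of all expressed probes. Their mean was -0.59, -0.09, -0.34, 0.95, 0.94, 0.78, 1.05, -0.74, -1.33 and -1.09. The mean of the members in mice 4 to 7 was closer to 0 than the adipocyte mean, at -0.84, -0.87, -0.55 and -1.01. For the adipocyte marker *Lpl*, mouse 6 (0.01) lay only just below mouse 10 (0.03). A second *Lpl* probe, which lacks mouse 10, had mouse 3 (-0.31) below mice 4 and 5 (-0.23 and -0.26). For the macrophage marker *Itgam*, mouse 6 (0.20) lay only just above mouse 3 (0.18) in the brightest probe. In the other *Itgam* probes mice 4 to 7 stood further from the rest.

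Of the other lists, 5 of 6 endothelial genes and 3 of 3 measured red cell genes also had mice 4 to 7 lowest. So had 2 of 4 measured lymphocyte genes, 2 of 5 mesothelial genes, 1 of 6 fat progenitor genes and 0 of 2 measured sperm genes. The share over all expressed probes was 21.3%. In the fat progenitor list 2 of 6 genes, *Col1a1* and *Col3a1*, had mice 4 to 7 as the 4 highest, against 17.9% of all expressed probes. These counts use the brightest probe. The endothelial exception, *Kdr*, had mice 4 to 7 lowest in its second probe, from -1.62 to -1.18. The red cell mean went from -2.06 to 0.51, the endothelial mean from -0.68 to 0.28, the mesothelial mean from -1.40 to 0.52, the lymphocyte mean from -0.47 to 0.21, the progenitor mean from -0.40 to 0.08 and the mean of *Prm1* and *Prm2* from -3.18 to -1.08. The part of the cell makeup in the values of the members was not tested.

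**Figure D4:**
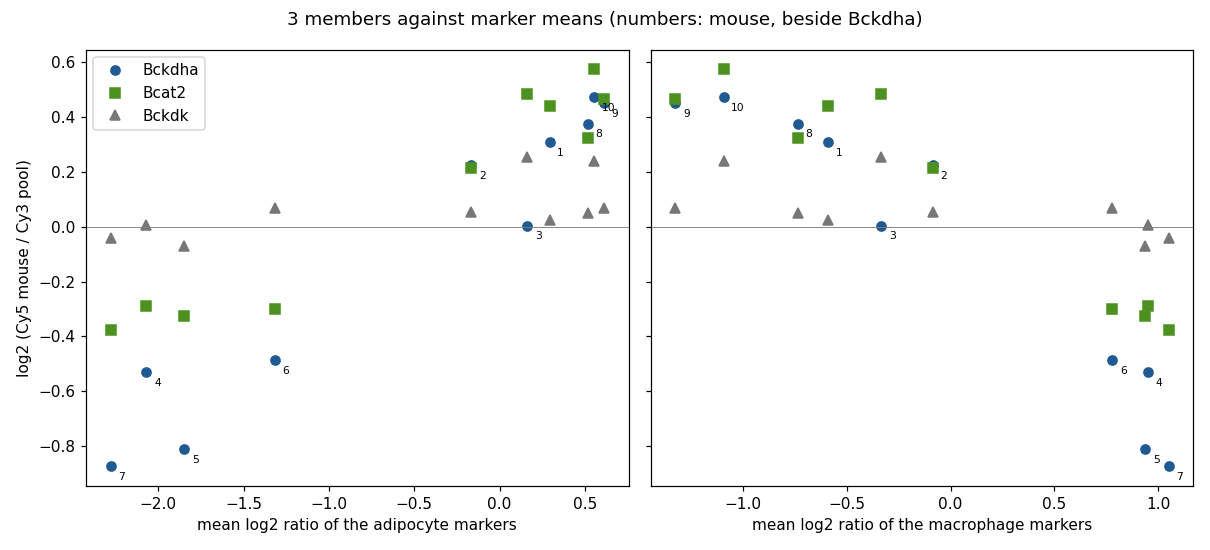
Log2 ratio of *Bckdha* (circles), *Bcat2* (squares) and *Bckdk* (triangles) against the mean log2 ratio of 10 adipocyte markers (left) and 10 macrophage markers (right), 1 point per mouse, with the number of the mouse beside *Bckdha*. Mice 4 to 7 form a separate cluster on both marker axes, and *Bckdk* stays near 0 across both.

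Since mice 4 to 7 stood apart on nearly all of these measures, relations between members were measured over the other 6 mice only. Of 10 relations, 1 passed: *Hibadh* and *Aldh6a1*, the consecutive valine enzymes, had a Pearson's r of 0.960 (exact permutation p = 0.00139, the smallest that 6 mice can give, adjusted p = 0.0139) and a Spearman's rho of 1 (exact permutation p = 0.00278, adjusted p = 0.0278). Without the 2 mice farthest from the median of *Hibadh*, r was 0.983 over 4 mice. Without any 1 of the 6 mice r stayed between 0.944 and 0.985 but was no longer called (exact permutation, adjusted p from 0.0625 to 0.25). The smallest p that 5 mice can give is 0.00833, so 1 relation alone could not pass among 10 there. With the slide as a block, r was 0.997 over the differences within the 5 slides (exact sign flips, adjusted p = 0.139). That r took all 10 mice, so it holds the separation of mice 4 to 7, unlike the values over 6 mice. The smallest p that 5 slides can give is 0.0625, so no relation could be called there.

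The subunit pairs gave r = 0.543 for *Bckdha* with *Bckdhb* (exact permutation adjusted p = 0.339, rho 0.771) and r = 0.554 for *Pcca* with *Pccb* (adjusted p = 0.339, rho 0.143). Without the 2 farthest mice these became 0.980 and -0.354. *Ivd* with *Mccc1* gave r = 0.622 (rho 0.543), *Bcat2* with *Bckdha* r = 0.206 (rho 0.371) and *Bckdha* with *Bckdk* r = -0.307 (rho -0.0286). With the adipocyte mean, r was 0.703 for *Bckdha* and 0.630 for *Bcat2*, and with the macrophage mean -0.791 and -0.629. None of these 9 passed (exact permutation tests, adjusted p from 0.292 to 0.681), but 7 of them passed with median centring and 3 with the log ratio of the scanner, and several changed sign with other processing.

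The genes whose pattern over the 10 mice was most like that of a member were sought for the 3 members with the largest SD. Likeness is the root mean square difference of the log2 ratios, each taken less its own mean. For *Aldh6a1* these were *Smoc1*, at 0.13, *Cidec*, a lipid droplet protein and 1 of the adipocyte markers, at 0.14, and *Cd1d1*, at 0.17. For *Bckdhb* they were *Gm10406*, at 0.04, *2700046G09Rik*, at 0.05, and a probe without a gene name, A_55_P2171196, at 0.06. For *Ivd* they were *Acaca*, which encodes acetyl-CoA carboxylase of fatty acid synthesis, at 0.07, *Mall*, at 0.07, and *Ushbp1*, at 0.09.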

How the data were processed

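RNA of eWAT from 10 mice was hybridised to Agilent two-colour arrays, 1 mouse (Cy5) and the common pool (Cy3) per array. The intensity values deposited by the authors are spot and local background brightness from Agilent Feature Extraction 10.7.3.1, per the labels, without normalization. The log10 ratio deposited in the same files was background-subtracted and dye-normalized by that software. The authors also deposited a normalized table of 30733 rows on a log2 scale, which follows the Cy5 signal (r from 0.994 to 0.999 over spots, all column medians 8.52). How it was centred and normalized is not given in the sources used here, and its direction is that of Cy5.

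Mean signals were corrected with normexp (offset 50), normalized by loess within arrays and Aquantile between arrays (limma 3.58.1, R 4.3.3). Outlier-flagged and control spots were left out and the 59305 other spots averaged per probe. Expressed probes were the 27811 marked as well above background in Cy5 on 5 arrays or more, of which 27718 had values on all arrays. The variance test took the 25049 complete probes expressed in both dyes. The brightest expressed probe stood for a gene. Pitman-Morgan tests, limma's F test of slide and exact permutation tests of 10 relations (n = 6) were Benjamini-Hochberg adjusted with a threshold of 0.05, in Python 3.11.15 with numpy, pandas and scipy. The tests were tried on simulated data. A relation used 6 mice where a measure parted the mice by a gap of at least 0.4 of its range with at least 3 mice on each side, or parted them as the first component did. The number of arrays limits the precision. The labels do not say whether RNA was extracted together, so p-values measure only the spread between these samples.

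The members and lists were chosen with earlier results of these data known. The genes named were the members, the pathway genes, the marker genes and the 3 nearest patterns of the 3 members with the largest SD. Alternatives were other background corrections, centring, sources of the log ratio, filters, tests, the slide as a block and leaving out each mouse. Probe positions are on mm9 and promoters on GRCm38.p6 (RefSeq). Values of some genes of the lists are not reported here.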

Additional observations from a re-analysis of the deposited data

Results flagged for a closer look

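Of the 42 expressed probes of the members and of the other branched-chain amino acid genes, 1 had a mouse far from the others. *Slc7a8*, a transporter of neutral amino acids, measured -0.35 in mouse 4 and between -0.05 and 0.30 in the other 9. The gap of mouse 4 to the nearest mouse was 0.467 of the whole range, just past the critical value for 10 samples. Chance flags about 1 in 20 such groups. None of the 12 member probes was flagged.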

How the results depend on the processing

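No paired analysis was possible because there is 1 group of mice. The order of the mice was read under alternatives chosen after seeing the data: mice 4 to 7 were the lowest 4 for 9 members under no background subtraction, the scanner's log ratio, the deposited values and the mean over all probes, but for 1 under median centring, and for 9 and 8 there when mouse 3 was left out or the median of all expressed probes of each mouse was subtracted. More variance in Cy5 was called for 4684 probes, 7 of them of members, without normalization between arrays, in place of 14970 and 12. It was called for 10 member probes with median centring (not *Bcat2* and *Bckdk*) and for 11 with no filter or the slide as a block (not *Bckdk*). The cause was not tested. Of the 10 relations, 8 passed with median centring, 4 with the scanner's log ratio, 0 without the 2 farthest mice and 0 with the slide as a block, and 0 to 1 on leaving out 1 mouse. The smallest exact p is 0.0417 over 4 mice and 0.00833 over 5, so 1 relation alone could not pass there. The slide as a block used all 10 mice, mice 4 to 7 included, and its smallest p of 0.0625 allowed no call. The r of *Bckdha* and *Bckdk*, -0.307, became 0.966 with median centring, 0.0752 with the log ratio of the scanner, 0.203 in the deposited table, 0.449 without the 2 farthest mice, 0.610 with the slide as a block over all 10 mice and, on leaving out 1 mouse, -0.821 (without mouse 10) to 0.640 (without mouse 3). With median centring the r with the macrophage mean became 0.0753 for *Bcat2* and 0.242 for *Bckdha*. That of *Pcca* and *Pccb* became -0.354 without the 2 farthest mice and went from -0.0103 (without mouse 9) to 0.708 (without mouse 3), that of *Bcat2* and the adipocyte mean from -0.00686 (without mouse 2) to 0.837 (without mouse 8), and that of *Bcat2* and *Bckdha* from -0.109 (without mouse 10) to 0.833 (without mouse 3). The median over the members of the mean ratio, -0.12, was 0.46 with median centring, where that of all expressed probes was 0.32. The median SD of the members, 0.61, stayed between 0.55 and 0.64 under all alternatives run.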
